A study of Homo sapiens with 48 samples.

Results

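The 40 genes described here encode the enzymes and transporters of glucose use and other well known targets of the hypoxia-inducible factors (HIF), together with the HIF subunits themselves. They were taken by gene symbol from the 60610 genes of a read count table of AT1R-expressing HEK293 cells. The rule that chose them used no measured value, although earlier results of these data were known when the list was made. All 40 passed the filter on low counts that left 19626 genes for testing, although CA9 stayed under 1 normalised read count per 1000000 reads assigned (CPM) in each of the 38 libraries analysed and carries little information.

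Glycolysis splits glucose into pyruvate. Glucose enters through transporters of the SLC2A family, hexokinases trap it as a phosphate, phosphofructokinase commits it to breakdown, and the enzymes from aldolase to pyruvate kinase recover energy from it. Lactate dehydrogenase then turns pyruvate into lactate, while pyruvate dehydrogenase kinases restrain its oxidation in the mitochondria. HIF is a pair of an oxygen-regulated α subunit (HIF1A or EPAS1) and the constant subunit ARNT, which binds a short DNA core, ACGTG or GCGTG. Prolyl hydroxylases mark the α subunit for degradation when oxygen is present, so that HIF protein is mainly set after transcription. Growth factor receptors and G protein-coupled receptors are known to raise HIF activity and glycolytic genes in normal oxygen too.

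The cells were 1 clone of HEK293, a human embryonic kidney line, stably transfected with the angiotensin II type 1 receptor (AT1R). Without serum they received no stimulus (control), 1 nM angiotensin II (AII), 10 µg/L epidermal growth factor (EGF) or both (AII + EGF), for 6 h or 24 h. Poly(A) RNA of whole cultures was sequenced in paired reads. Since the samples are bulk RNA of 1 clone, more responding cells and more RNA per cell cannot be told apart, and the receptor comes from a transgene.

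Of 48 libraries, 38 entered the comparisons. They comprised 4 control, 5 AII, 3 EGF and 4 AII + EGF libraries at 6 h, and 6 control, 5 AII, 5 EGF and 6 AII + EGF libraries at 24 h. Total counts ran from 17783804 to 29956472 per library, and the EGF libraries of 6 h were the deepest, starting at 28027446. The 8 libraries of 4 near-identical pairs were left out, since the counts within each pair differed by less than sampling noise, which was seen in 4 of 1128 pairs of libraries, and 3 of these 4 joined libraries labelled as different groups. A further 2 libraries, labelled AII replicate 6 and AII + EGF replicate 6 at 6 h, were left out because their labels are in doubt. The 6 h groups were therefore not balanced over the stretches of consecutive sample titles, and the main fit held no term for them. Replicates 1 and 2 of AII and of AII + EGF at 6 h came from a stretch of which no control or EGF library was kept. The labels do not say whether replicates came from separate cultures, so that p-values measure the spread between these samples only. All 6 HEK293 markers exceeded 1 CPM in the median library, and 0 of 4 leukocyte, 0 of 4 endothelial and 0 of 4 hepatocyte markers did. The summed HEK293 marker level moved with the stimuli, from 2708 to 4814 CPM in control to 7753 to 9983 CPM with AII + EGF at 6 h, and its part in the results was not tested. Most of this sum was NEFM, which ran from 2405 to 9529 CPM over the libraries, where VIM, the next, ran from 170 to 621.9 CPM. The immediate-early gene EGR1 was 1 of 4 genes used to check the stimulation and averaged 6.24 CPM in control, 7.11 with AII, 115 with EGF and 231 with AII + EGF at 6 h. In the same order ETV5 averaged 0.922, 8.05, 33.4 and 83.3 CPM, ARC 5.76, 7.84, 29.8 and 248 CPM and DUSP6 0.462, 0.618, 1.81 and 2.94 CPM. Each AII library thus lay above each control for ETV5 and not for EGR1.

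A set of libraries stood apart in these genes. Replicate 6, the last in each group and from the last stretches of sample titles, held the lowest level of its group for 30 of the 40 genes in the control of 6 h and for 31, 36, 35 and 34 of 40 in control, AII, EGF and AII + EGF of 24 h. For 30 genes replicate 6 was lowest in all 4 groups of 24 h. These counts were not made over all tested genes, so they do not show whether the shift is particular to the 40 genes. The check gene EGR1 stood apart there too. In the 5 EGF libraries of 24 h it read 6.43, 25.6, 27.5, 30.9 and 36.9 CPM, the lowest being replicate 6, against 6.56 to 8.51 CPM in control, and replicate 6 of AII + EGF read 8.08 CPM where the others ran from 16.5 to 33.4 CPM. At 6 h replicate 6 was kept in the control group alone. Calls among the 40 genes that were gained or lost without these libraries are therefore given beside each comparison, and the calculation without them was chosen after seeing the data.

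At 6 h many of these genes rose, and the largest number did so with both stimuli. With AII + EGF 24 of the 40 genes passed as higher than control and none as lower. EGF alone raised 8 and AII alone 3. A gene was called when its adjusted p was under 0.01 (edgeR quasi-likelihood test, Benjamini-Hochberg over 19626 genes), its change was at least 1.5-fold and its mean was above 5 CPM in the higher group. The percentages of all tested genes called higher were 6.45% with AII + EGF, 1.62% with EGF and 0.459% with AII, against 24, 8 and 3 of 40 here. The median log2 change of the 40 genes was 0.369 with AII, 0.567 with EGF and 0.827 with AII + EGF, whereas the median over all tested genes was -0.00845, -0.0118 and -0.0319. Positive changes were seen in 37 of 40 genes with AII, 37 with EGF and 35 with AII + EGF.

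Library by library, 16 of the 40 genes lay above every control library in every AII library, against 7.52% of all tested genes whose groups did not overlap in either direction. With EGF 29 genes lay above all controls, against 22.1%. With AII + EGF 28 lay above and 2, PFKL and PFKM, lay below all controls, against 33.4%. Group means rose in the order control, AII, EGF and AII + EGF for 27 of 40 genes. For 7 of them (SLC2A1, SLC2A3, HK2, PFKP, NDRG1, KDM3A and EPAS1) no library of 1 group overlapped with the next in that order. How many of all tested genes show this order was not counted, so it cannot be called particular to these genes. The 3 comparisons share their control libraries and are not independent of each other.

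**Figure D1:**
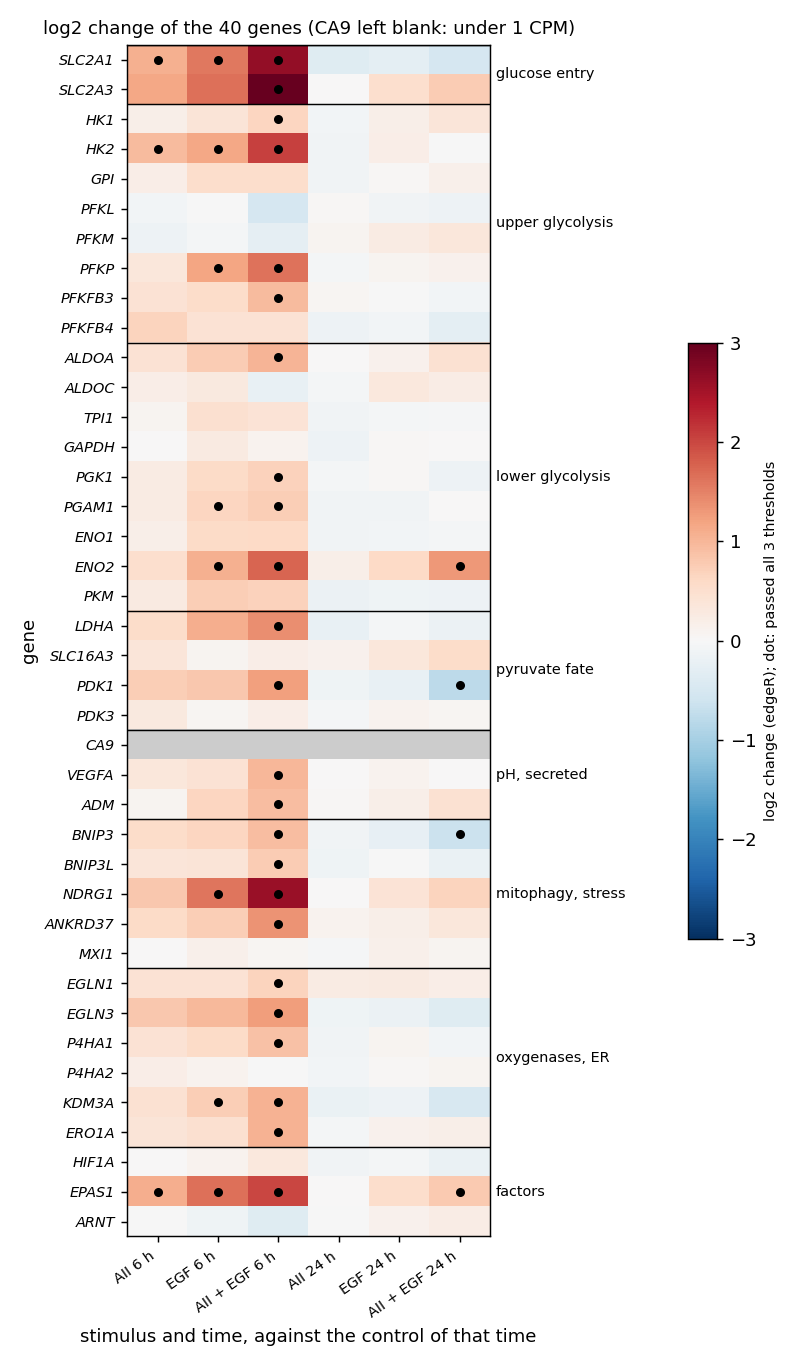
Log2 change of each of the 40 genes (rows, grouped by role) against the control of its time for AII, EGF and AII + EGF at 6 h and 24 h (columns), with a dot where a change was called and CA9 left blank for its low counts. The third 6 h column holds 24 called increases, and 0 genes were called with AII or EGF at 24 h.

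The promoters of called genes are shown because the HIF core is a short DNA word that can be looked for directly. RefSeq promoter sequence (250 bases before the start site, GRCh38.p14) was matched for 36 of the 40 genes. A hypoxia core, ACGTG or GCGTG on either strand, stood in 23 of these 36 (63.9%), against 43.1% of 27305 promoters of the same length. The word ACGTG stood in 15 (41.7%, against 18.7%) and GCGTG in 14 (38.9%, against 31.9%). The genes were listed as known HIF targets, so a higher share than over all promoters may follow from that choice and is no result of these data. Of the 20 called genes with a matched promoter 14 held a core, where 23 of all 36 did. The called genes SLC2A1, HK1, PFKP, PGAM1, PDK1 and EGLN3 held none, and SLC2A3, VEGFA, BNIP3L and NDRG1 had no matched promoter. The AP-1 word TGACTCA or TGAGTCA was present in 2 of 36 (5.6%, against 4.2%), and the EGR word GCGTGGGCG, which contains GCGTG, in 0 of 36 (against 0.7% of all promoters). The 4 promoters below belong to the called genes with the largest changes among those that hold a core. They are written 5′ to 3′ on the gene's strand, which is the plus strand for each, with the hypoxia cores on either strand in capitals, and in ENO2 also the AP-1 word TGACTCA. HK2 (chr2:74833877-74834126) held 3 cores, EPAS1 (chr2:46297157-46297406) 1, ENO2 (chr12:6914330-6914579) 1 and LDHA (chr11:18394313-18394562) 5, where the palindrome CACGTG counts on both strands. A match describes letters and not binding.
HK2: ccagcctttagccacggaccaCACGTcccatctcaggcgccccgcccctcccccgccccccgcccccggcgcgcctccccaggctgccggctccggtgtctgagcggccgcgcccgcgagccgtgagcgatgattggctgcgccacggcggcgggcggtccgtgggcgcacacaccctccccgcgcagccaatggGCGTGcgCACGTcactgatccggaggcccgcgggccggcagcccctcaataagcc
EPAS1: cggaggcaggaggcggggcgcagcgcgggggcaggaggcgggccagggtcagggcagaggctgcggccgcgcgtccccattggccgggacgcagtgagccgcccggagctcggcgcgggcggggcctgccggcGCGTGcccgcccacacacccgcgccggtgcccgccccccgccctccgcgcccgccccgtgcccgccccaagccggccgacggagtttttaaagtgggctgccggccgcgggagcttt
ENO2: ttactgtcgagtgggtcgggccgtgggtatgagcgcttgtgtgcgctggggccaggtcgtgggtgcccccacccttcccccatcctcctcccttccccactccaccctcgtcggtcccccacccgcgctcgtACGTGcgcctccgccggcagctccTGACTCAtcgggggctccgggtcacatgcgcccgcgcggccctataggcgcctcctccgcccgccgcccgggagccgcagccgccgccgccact
LDHA: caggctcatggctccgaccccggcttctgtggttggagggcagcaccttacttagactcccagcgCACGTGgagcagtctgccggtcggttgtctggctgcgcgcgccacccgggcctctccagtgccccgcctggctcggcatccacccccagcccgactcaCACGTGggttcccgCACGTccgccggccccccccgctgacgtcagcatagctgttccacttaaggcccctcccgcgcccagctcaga

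The glucose transporters had the 2 largest changes with AII + EGF at 6 h. SLC2A1 (chr1:42925353-42958868, RefSeq GRCh38.p14 as for all genes below) encodes GLUT1, the transporter for basal glucose uptake of many cells. SLC2A1 was measured at 46.8, 58.2, 69.2 and 73 CPM in the control libraries of 6 h and at 117, 120.3, 122, 132 and 152 CPM with AII. SLC2A1 with EGF read 174, 188 and 192 CPM, and with AII + EGF 305, 385, 415 and 421 CPM. The 4 groups did not overlap, and the lowest AII + EGF library stood above the highest EGF library. SLC2A1 rose by a log2 change of 1.06 ± 0.18 (SE) with AII (edgeR adjusted p = 2.97e-04), 1.58 ± 0.20 with EGF (adjusted p = 4.64e-07) and 2.63 ± 0.19 with AII + EGF (adjusted p = 1.57e-13).

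SLC2A3 (chr12:7919230-7936187) encodes GLUT3, a high-affinity glucose transporter best known from neurons. SLC2A3 was measured at 1.80, 4.92, 5.001 and 5.32 CPM in control and 8.05, 8.23, 9.10, 10.8 and 11.1 CPM with AII. SLC2A3 with EGF read 12.3, 13.8 and 13.9 CPM, and with AII + EGF 27.2, 34.9, 35.2 and 36.9 CPM. Again the groups were separate, with control replicate 6 the lowest of all. Its log2 change of 2.99 ± 0.42 with AII + EGF was the largest of the 40 genes (edgeR adjusted p = 3.57e-07). With AII (1.16 ± 0.40, adjusted p = 0.144) and EGF (1.65 ± 0.43, adjusted p = 0.0126) the change did not pass, whereas both passed without replicate 6 (0.90 and 1.38, adjusted p = 2.05e-05 and 7.97e-09).

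In upper glycolysis 4 of 8 genes were called with AII + EGF. HK2 (chr2:74834127-74893359) encodes the inducible hexokinase that binds mitochondria. HK2 was measured at 49.96, 56.6, 58.02 and 64.1 CPM in control and 102, 104, 108, 117 and 118 CPM with AII. HK2 with EGF read 125, 127 and 133 CPM, and with AII + EGF 205, 242, 248 and 256 CPM. Each group lay above the one before. HK2 rose by 0.94 ± 0.19 on the log2 scale with AII (edgeR adjusted p = 0.0033), by 1.17 ± 0.21 with EGF (adjusted p = 2.34e-04) and by 2.06 ± 0.20 with AII + EGF (adjusted p = 2.64e-10). The AII call was lost when control replicate 3, 5 or 6 was left out.

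PFKP (chr10:3067548-3136805) is the platelet-type subunit of phosphofructokinase. PFKP was measured at 69.5, 85.4, 86.3 and 97.6 CPM in control and 97.9, 100.5, 101, 116 and 125 CPM with AII. PFKP with EGF read 190.0, 191 and 193 CPM, and with AII + EGF 231, 268, 274 and 278 CPM. The lowest AII library lay just above the highest control, and EGF and AII + EGF libraries stood clear of both. PFKP rose with EGF (1.18 ± 0.18, edgeR adjusted p = 2.28e-05) and AII + EGF (1.63 ± 0.17, adjusted p = 1.38e-09), and gave 0.35 ± 0.16 with AII (adjusted p = 0.373). The other phosphofructokinase subunits did not follow it. PFKL gave -0.50 ± 0.11 with AII + EGF (adjusted p = 4.80e-04, below the 1.5-fold minimum) and PFKM -0.26 ± 0.10 (adjusted p = 0.0467), both with all AII + EGF libraries below all controls. PFKFB3, whose product makes the activator of phosphofructokinase, was called with AII + EGF (log2 change 0.96), as was HK1, the basal hexokinase (0.63), which was not called without replicate 6 (0.51) or without AII + EGF replicate 5. PFKFB4 (0.44) and GPI (0.53) were not called.

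In lower glycolysis 4 of 9 genes were called with AII + EGF. ENO2 (chr12:6914580-6923697) encodes the enolase typical of neurons and inducible elsewhere. ENO2 was measured at 7.67, 9.09, 10.3 and 12.9 CPM in control and 11.8, 13, 13.7, 15.8 and 16.8 CPM with AII. ENO2 with EGF read 19.6, 20.96 and 21.8 CPM, and with AII + EGF 29.1, 33.2, 33.3 and 38.9 CPM. Control and AII libraries overlapped, whereas EGF and AII + EGF libraries did not overlap with any group beneath them. ENO2 rose with EGF (1.06 ± 0.27, edgeR adjusted p = 0.00909) and AII + EGF (1.76 ± 0.25, adjusted p = 6.82e-07), and gave 0.51 ± 0.24 with AII (adjusted p = 0.38). The EGF call was close to the threshold and held in 1 of 7 leave-outs of single libraries, the one without control replicate 3.

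ALDOA (chr16:30064279-30070420), aldolase A, was measured at 4.09, 4.10, 4.47 and 5.61 CPM in control and 4.09, 6.56, 6.61, 6.74 and 6.98 CPM with AII. ALDOA with EGF read 7.33, 7.71 and 8.23 CPM, and with AII + EGF 6.85, 8.20, 10.2 and 11.9 CPM. The AII + EGF libraries lay above all controls but overlapped with those of EGF. Its log2 change was 1.02 ± 0.24 with AII + EGF (edgeR adjusted p = 8.54e-04). ALDOA had at most 291 counts in a library, which is little for this enzyme, and a further gene entry of the table, AC093512.2, overlaps it, so that its level is uncertain. PGAM1 (phosphoglycerate mutase) rose with EGF (log2 change 0.65) and AII + EGF (0.74), and PGK1 (phosphoglycerate kinase) with AII + EGF (0.70). The EGF call of PGAM1 held in 1 of 7 leave-outs, the one without control replicate 3, and was lost without replicate 6 (0.58, adjusted p = 0.0229), and PGK1 was lost without AII + EGF replicate 5 or control replicate 5 or 6. Not called were ENO1 (0.60, adjusted p = 0.0111), PKM (0.70, adjusted p = 0.0135), TPI1 (0.42), GAPDH (0.11) and ALDOC (-0.21). GAPDH, PGK1, ENO1, LDHA, TPI1, PGAM1, ALDOA and BNIP3 have pseudogene copies, and the handling of reads that match several places is not given in the sources used here.

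At the branch point of pyruvate, LDHA (chr11:18394563-18408425), the lactate dehydrogenase subunit that favours lactate, was measured at 432, 687, 748 and 915 CPM in control and 853, 865, 1091, 1106 and 1169 CPM with AII. LDHA with EGF read 1435, 1477 and 1549 CPM, and with AII + EGF 1671, 1735, 1746 and 2144 CPM. Control libraries spread more than 2-fold, with replicate 6 lowest, and the EGF and AII + EGF libraries stood above all control and AII libraries. LDHA rose by 1.39 ± 0.31 with AII + EGF (edgeR adjusted p = 4.38e-04). Its EGF change (1.10 ± 0.32, adjusted p = 0.0311) passed without replicate 6 (0.91, adjusted p = 4.27e-04).

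PDK1 (chr2:172555373-172724312), a pyruvate dehydrogenase kinase that restrains the oxidation of pyruvate, was measured at 15.8, 26.5, 27.8 and 30.2 CPM in control and 38.9, 39.8, 40.8, 42.8 and 46.5 CPM with AII. PDK1 with EGF read 42.04, 44.2 and 45.9 CPM, and with AII + EGF 55.96, 58.4, 59.3 and 62.01 CPM. All stimulated libraries lay above all controls, and AII and EGF libraries overlapped. PDK1 rose by 1.23 ± 0.26 with AII + EGF (edgeR adjusted p = 2.04e-04). Its EGF change (0.81 ± 0.27, adjusted p = 0.0652) passed without replicate 6 (0.63, adjusted p = 8.31e-05). SLC16A3, a lactate exporter present at 1.003 to 1.97 CPM in control (0.20), and PDK3 (0.20) were not called.

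**Figure D2:**
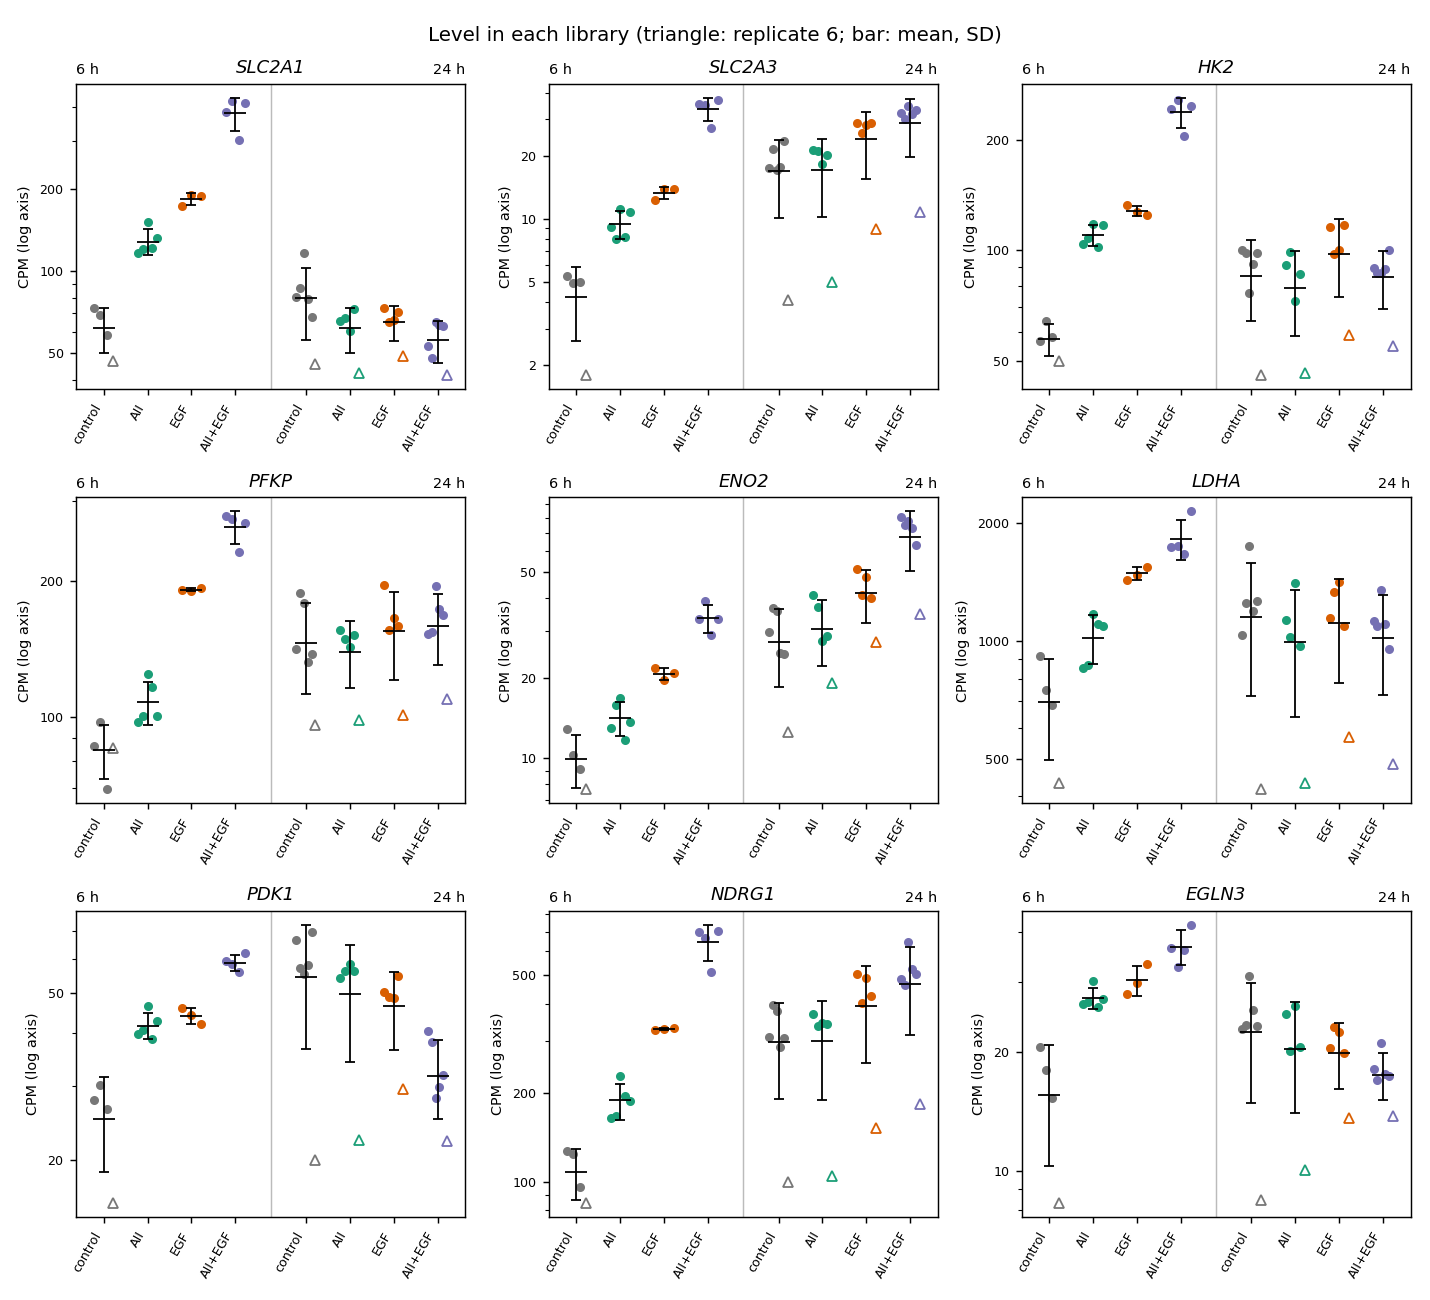
CPM (log axis) of 9 genes in each of the 38 libraries, by group at 6 h and 24 h, with bars for mean ± SD and open triangles for replicate 6. At 6 h SLC2A1 climbed from 46.8 to 73 CPM in control to 305 to 421 CPM with AII + EGF, and at 24 h the open triangles lie at or near the bottom of their groups.

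Of the secreted products, VEGFA (chr6:43770211-43786487), the vascular growth factor, was measured at 33.5, 36.2, 38.2 and 43.7 CPM in control and 41.6, 43.5, 49.5, 51.8 and 52.5 CPM with AII. VEGFA with EGF read 47.5, 50.2 and 54.8 CPM, and with AII + EGF 65.3, 68.4, 80.9 and 85.6 CPM. AII libraries overlapped with control and with EGF, and the AII + EGF libraries stood above all others. VEGFA rose by 0.98 ± 0.14 with AII + EGF (edgeR adjusted p = 3.76e-07), and the count table lists it under the biotype polymorphic pseudogene. ADM (chr11:10305073-10307397), the vasodilator peptide adrenomedullin, was measured at 11.2, 11.8, 12.2 and 14.7 CPM in control and 11.2, 12.1, 12.4, 14.04 and 16.4 CPM with AII. ADM with EGF read 17.7, 19.7 and 21.1 CPM, and with AII + EGF 21.9, 22.5, 23.5 and 26.3 CPM. Control and AII libraries covered the same range, and AII + EGF libraries lay above the EGF libraries. ADM rose by 0.91 ± 0.19 with AII + EGF (edgeR adjusted p = 1.59e-04) and gave 0.09 ± 0.18 with AII (adjusted p = 0.908). Its EGF change (0.64 ± 0.20, adjusted p = 0.0403) passed without replicate 6 (0.61, adjusted p = 0.00304). CA9, the carbonic anhydrase used as a hypoxia marker, had at most 15 counts in a library and gives no usable fold change.

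NDRG1 on chromosome 8, a stress-induced protein used as a hypoxia marker, was measured at 84.8, 95.8, 124 and 127 CPM in control and 164, 166, 187, 195 and 228 CPM with AII. NDRG1 with EGF read 325, 329 and 331 CPM, and with AII + EGF 512, 666, 698 and 706 CPM. The groups were separate and in the same order as for SLC2A1. NDRG1 rose with EGF (1.61 ± 0.36, edgeR adjusted p = 0.00276) and AII + EGF (2.58 ± 0.35, adjusted p = 2.14e-07), and its AII change (0.80 ± 0.32, adjusted p = 0.244) passed without replicate 6 (0.71, adjusted p = 0.00132). The EGF call held in 2 of 7 leave-outs, those without control replicate 3 or 4.

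ANKRD37 (chr4:185396841-185400723), an ankyrin repeat protein known as a HIF target, was measured at 2.15, 2.33, 2.59 and 3.35 CPM in control and 3.03, 3.58, 3.71, 3.96 and 4.97 CPM with AII. ANKRD37 with EGF read 3.84, 4.47 and 4.67 CPM, and with AII + EGF 5.24, 6.34, 6.92 and 8.14 CPM. AII + EGF libraries were higher than those of each other group. ANKRD37 rose by 1.35 ± 0.20 with AII + EGF (edgeR adjusted p = 1.47e-06). It had at most 152 counts in a library and overlaps a neighbouring gene, and the use of strand in counting is not given in the sources used here. The mitophagy receptors BNIP3 (0.93) and BNIP3L (0.77) were called with AII + EGF. MXI1, an antagonist of MYC, was not (0.05).

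The oxygen-dependent hydroxylases include the sensors of the pathway, themselves HIF targets. EGLN3 (chr14:33924227-33951074), the prolyl hydroxylase PHD3, was measured at 8.33, 15.3, 17.96 and 20.5 CPM in control and 25.9, 26.3, 26.7, 27.2 and 30.2 CPM with AII. EGLN3 with EGF read 27.9, 29.7 and 33.2 CPM, and with AII + EGF 32.8, 36.1, 36.5 and 41.7 CPM. All stimulated libraries lay above the controls, and EGF and AII + EGF overlapped. EGLN3 rose by 1.25 ± 0.25 with AII + EGF (edgeR adjusted p = 1.45e-04), and without replicate 6 it also passed with AII (0.61, adjusted p = 0.00178) and EGF (0.74, adjusted p = 1.45e-04).

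KDM3A (chr2:86437044-86492716), a histone H3K9 demethylase, was measured at 60.1, 78.2, 79.5 and 80.9 CPM in control and 93.8, 98.8, 100.1, 105 and 112 CPM with AII. KDM3A with EGF read 122, 125 and 128 CPM, and with AII + EGF 146, 155, 157 and 161 CPM. No group overlapped with the next. KDM3A rose with EGF (0.75 ± 0.16, edgeR adjusted p = 0.00191) and AII + EGF (1.05 ± 0.15, adjusted p = 6.42e-07), and the EGF call was lost without EGF replicate 5 or control replicate 6. Further calls with AII + EGF were ERO1A, an oxidase of disulfide formation (log2 change 1.04), P4HA1, a collagen prolyl hydroxylase (0.89), and EGLN1, the main HIF prolyl hydroxylase (0.66). EGLN1 was lost without AII + EGF replicate 2, and P4HA1 without AII + EGF replicate 1 or 5 or control replicate 4 or 6. P4HA2 was not called (-0.02).

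Of the 3 HIF subunit genes only EPAS1 was called at 6 h. EPAS1 (chr2:46297407-46386697), which encodes HIF-2α, was measured at 6.88, 8.39, 9.36 and 10.4 CPM in control and 16.7, 17.9, 17.9, 20.1 and 20.2 CPM with AII. EPAS1 with EGF read 27.2, 27.7 and 27.7 CPM, and with AII + EGF 33.5, 34.99, 35.9 and 36.9 CPM. No group overlapped with the next, and the 3 EGF libraries lay within 1 CPM of each other. EPAS1 was called with AII (1.08 ± 0.16, edgeR adjusted p = 3.02e-05), EGF (1.65 ± 0.17, adjusted p = 1.05e-08) and AII + EGF (2.01 ± 0.17, adjusted p = 2.42e-12).

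HIF1A (chr14:61695513-61748258), which encodes HIF-1α, was measured at 93.3, 99.9, 102 and 106 CPM in control and 93.5, 99.3, 102, 103 and 112 CPM with AII. HIF1A with EGF read 99.8, 109.5 and 114 CPM, and with AII + EGF 112, 123, 127 and 134 CPM. AII and EGF libraries overlapped with control, and the AII + EGF libraries stood above it. The log2 change of HIF1A with AII + EGF was 0.31 ± 0.09 (edgeR adjusted p = 0.00505), which passed the adjusted p and not the fold, and those with AII and EGF were 0.02 ± 0.08 and 0.10 ± 0.09.

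ARNT (chr1:150809713-150876599) was measured at 79.3, 103, 111 and 111 CPM in control and 90.2, 95.9, 99.3, 106 and 107 CPM with AII. ARNT with EGF read 86.9, 93.97 and 95.3 CPM, and with AII + EGF 73.7, 77.4, 78.8 and 81.9 CPM. The AII + EGF libraries lay below all AII and EGF libraries and overlapped with control through replicate 6. ARNT gave a log2 change of -0.37 ± 0.12 with AII + EGF (edgeR adjusted p = 0.0103), which just missed the threshold for p and lay under the fold minimum.

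**Figure D3:**
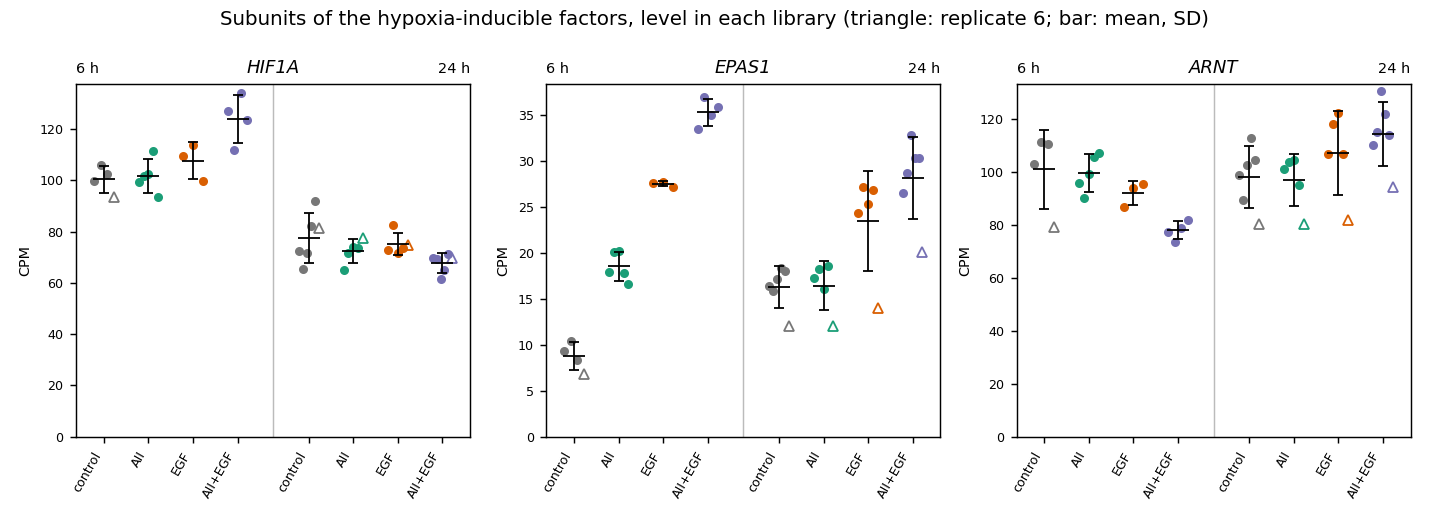
CPM of the HIF subunit genes HIF1A, EPAS1 and ARNT in each library by group at 6 h and 24 h, with bars for mean ± SD and open triangles for replicate 6. EPAS1 rose stepwise from 6.88 to 10.4 CPM in control to 33.5 to 36.9 CPM with AII + EGF at 6 h, whereas HIF1A moved from 93.3 to 106 CPM to 112 to 134 CPM.

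Of the 24 calls with AII + EGF at 6 h, 15 held in all 16 alternative analyses and all 8 leave-outs of single libraries. These were SLC2A1, SLC2A3, HK2, PFKP, PFKFB3, ALDOA, PGAM1, VEGFA, ADM, NDRG1, ANKRD37, EGLN3, KDM3A, ERO1A and EPAS1. With EGF 3 of 8 calls held throughout and with AII 0 of 3, and the same was true of 0 of 2 calls of AII + EGF against EGF and of 2 of 12 against AII at 6 h. Without replicate 6 the number of called genes was 23 with AII + EGF, 12 with EGF and 6 with AII, all higher, where 11.8%, 1.97% and 0.568% of all tested genes were called in either direction.

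To ask what each stimulus added to the other, AII + EGF was compared with EGF alone and with AII alone at 6 h. Against EGF, 2 of 40 genes were called higher (1.62% of all tested genes), SLC2A1 with a log2 difference of 1.05 ± 0.20 (edgeR adjusted p = 4.20e-04) and HK2 with 0.89 ± 0.22 (adjusted p = 0.00507). HK2 held in 1 of 7 leave-outs, the one without AII + EGF replicate 3. Without replicate 6 of all groups SLC2A3 (1.34), ENO2 (0.70) and NDRG1 (0.98) passed as well, although no library of these 2 groups was removed, since the estimate of spread is shared over groups. In the full set SLC2A3 gave 1.33 ± 0.41 (adjusted p = 0.0322), ENO2 0.69 ± 0.26 (adjusted p = 0.0886) and NDRG1 0.98 ± 0.36 (adjusted p = 0.0828), and for each the lowest AII + EGF library exceeded the highest EGF library.

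Against AII alone, 12 of 40 genes were called higher (4.21% of all tested genes). The differences were largest for SLC2A3 (log2 1.83), NDRG1 (1.78), SLC2A1 (1.57), PFKP (1.28), ENO2 (1.24) and HK2 (1.11). EPAS1 (0.93), ADM (0.83), ANKRD37 (0.79), VEGFA (0.65), ERO1A (0.64) and KDM3A (0.60) made up the rest. VEGFA and KDM3A were lost without AII + EGF replicate 1, KDM3A also without AII replicate 1, and ANKRD37 without AII + EGF replicate 2. Without replicate 6 LDHA (0.83) passed as well.

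Whether the joint effect differed from the sum of the single effects on the log2 scale was tested by the interaction of AII and EGF. None of the 40 genes passed at 6 h (0.229% of all tested genes). By unadjusted p under 0.05 there were 2, beside 1916 of all 19626 tested genes, and DESeq2 called 0 of the 40. For SLC2A1 the departure from the sum was -0.01 ± 0.26, with an interval of 2 SE to each side from -0.535 to 0.514. The same was -0.05 ± 0.28 (-0.617 to 0.516) for HK2, 0.17 ± 0.57 (-0.96 to 1.3) for SLC2A3 and 0.17 ± 0.47 (-0.777 to 1.12) for NDRG1. These intervals include 0 and are wide. EPAS1 gave the largest negative value among the named genes, -0.72 ± 0.23 (-1.18 to -0.265, edgeR adjusted p = 0.158), which passed as lower without replicate 6 (-0.61, adjusted p = 0.00876). With the stretch of titles as a covariate the interaction at 6 h called 1 of the 40, as lower.

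At 24 h fewer of the genes were called. No gene of the 40 was called with AII (0% of all tested genes) and none with EGF (0.245%). With AII 1 of the 40 had an unadjusted p under 0.05 in edgeR and with EGF 4 did, and DESeq2 called 0 in both. With the stretch of titles as a covariate EGF called 2 of the 40 at 24 h, both higher, and AII 0. Over all 19626 tested genes the unadjusted p was under 0.05 for 343 with AII and 2876 with EGF. With AII + EGF 4 genes were called (2.9% of all tested genes), ENO2 and EPAS1 as higher and PDK1 and BNIP3 as lower. The median log2 change of the 40 genes with AII + EGF was 0.038 against -0.0237 over all tested genes. EPAS1 was the 1 gene whose AII + EGF libraries all stood above all controls at 24 h, against 4.73% of tested genes without overlap.

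ENO2 held a lowest, median and highest level of 12.6, 27.3 and 36.8 CPM in control at 24 h and of 34.8, 74.2 and 80.7 CPM with AII + EGF. ENO2 at 24 h read 19.1, 27.5, 28.8, 36.95 and 40.9 CPM with AII and 27.3, 40.1, 41, 48.02 and 51.3 CPM with EGF. The lowest library was replicate 6 in control and AII + EGF, and apart from it the 2 groups were separate. Its log2 change was 1.30 ± 0.20 with AII + EGF (edgeR adjusted p = 9.01e-06), 0.60 ± 0.20 with EGF (adjusted p = 0.119) and 0.16 ± 0.20 with AII. EPAS1 ran from 12.1 to 18.4 CPM in control, with a median of 16.8, and from 20.1 to 32.8 CPM with AII + EGF, with a median of 29.5. EPAS1 at 24 h read 12.1, 16.1, 17.3, 18.2 and 18.6 CPM with AII and 14.02, 24.3, 25.4, 26.9 and 27.1 CPM with EGF. The AII libraries lay within or close to the control range, and 4 of the 5 EGF libraries lay above it. Its log2 change was 0.79 ± 0.13 with AII + EGF (edgeR adjusted p = 2.87e-05) and 0.53 ± 0.13 with EGF (adjusted p = 0.0281), and both ENO2 (0.59) and EPAS1 (0.61) passed with EGF without replicate 6. Both AII + EGF calls held in all 15 alternatives and all 12 leave-outs.

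PDK1, which had risen at 6 h, held a lowest, median and highest level of 19.97, 57.6 and 69.7 CPM in control and of 22.2, 30.8 and 40.4 CPM with AII + EGF at 24 h. PDK1 read 22.4, 54.1, 56.3, 56.4 and 58.5 CPM with AII and 29.4, 48.6, 48.9, 50.2 and 54.7 CPM with EGF. Apart from replicate 6 of control the AII + EGF libraries sat under the controls. Its log2 change was -0.78 ± 0.21 (edgeR adjusted p = 0.00616), and that of BNIP3 was -0.64 ± 0.17 (adjusted p = 0.0067). PDK1 was called in 4 of 12 leave-outs, those without control replicate 3 or 6 or AII + EGF replicate 1 or 2, and BNIP3 in 2 of 12, those without control replicate 6 or AII + EGF replicate 1. Without replicate 6 of all groups PDK1 (-0.85), BNIP3 (-0.72), ENO2 (1.30) and EPAS1 (0.81) were called together with SLC2A3 (0.74) and NDRG1 (0.66).

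The remaining genes named for 6 h were not called at 24 h with all libraries. SLC2A1 held a lowest, median and highest level of 45.7, 79.8 and 117 CPM in control and 41.5, 58.1 and 65.4 CPM with AII + EGF. SLC2A1 read 42.3, 60.6, 65.6, 67.4 and 72.5 CPM with AII and 48.8, 65.3, 66.1, 70.6 and 73.4 CPM with EGF. The groups overlapped, and the log2 change with AII + EGF was -0.51 ± 0.15 (edgeR adjusted p = 0.0146). SLC2A3 held 4.11, 17.6 and 23.5 CPM in control and 10.7, 31.6 and 34.5 CPM with AII + EGF. SLC2A3 read 4.99, 18.2, 20.1, 20.97 and 21.3 CPM with AII and 8.92, 25.7, 27.9, 28.6 and 28.6 CPM with EGF. Replicate 6 was the lowest of each group by a wide gap, and the log2 change with AII + EGF was 0.76 ± 0.30 (edgeR adjusted p = 0.0754). NDRG1 held 99.6, 308 and 396 CPM in control and 184, 493 and 646 CPM with AII + EGF. NDRG1 read 105, 336, 340.5, 344 and 369 CPM with AII and 151, 400.5, 424, 488 and 502 CPM with EGF. The same gap to replicate 6 was seen, and the log2 change with AII + EGF was 0.66 ± 0.27 (edgeR adjusted p = 0.0819).

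HK2 held a lowest, median and highest level of 45.7, 95.01 and 100.3 CPM in control and 54.98, 87.7 and 100.2 CPM with AII + EGF at 24 h. HK2 read 46.4, 72.9, 86.2, 90.98 and 98.7 CPM with AII and 58.8, 97.5, 100.3, 116 and 117 CPM with EGF. The 4 groups covered nearly one range (log2 change -0.01 with AII + EGF). PFKP held 96.1, 139.7 and 188 CPM in control and 109.7, 161 and 194 CPM with AII + EGF. PFKP read 98.8, 143, 149, 152 and 155 CPM with AII and 101, 155, 159, 165 and 195 CPM with EGF. It overlapped across the groups as well (0.12). LDHA held 418, 1224 and 1749 CPM in control and 485, 1097 and 1347 CPM with AII + EGF. LDHA read 434, 968, 1023, 1131 and 1407 CPM with AII and 569, 1089, 1144, 1334 and 1413 CPM with EGF. Its spread within each group exceeded the differences between them (-0.18). ALDOA held 4.81, 7.51 and 10.8 CPM in control and 6.57, 9.61 and 13.3 CPM with AII + EGF. ALDOA read 5.49, 6.25, 6.94, 8.75 and 9.79 CPM with AII and 5.92, 5.96, 9.02, 9.46 and 9.72 CPM with EGF. The groups overlapped (0.46 ± 0.19, edgeR adjusted p = 0.0828).

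KDM3A held a lowest, median and highest level of 61.1, 102 and 109.6 CPM in control and 51.03, 71.6 and 76.3 CPM with AII + EGF at 24 h. KDM3A read 53.3, 85.6, 93.1, 93.1 and 93.2 CPM with AII and 64.7, 88.8, 89.8, 93.9 and 94.1 CPM with EGF. Apart from replicate 6 of control the AII + EGF libraries sat under the controls, with a log2 change of -0.49 ± 0.12 that passed the adjusted p (0.004, edgeR) and not the fold minimum. EGLN3 held 8.46, 23.3 and 31.1 CPM in control and 13.8, 17.5 and 21.1 CPM with AII + EGF. EGLN3 read 10.1, 20.1, 20.6, 24.9 and 26.1 CPM with AII and 13.6, 19.9, 20.4, 22.5 and 23.04 CPM with EGF. All groups overlapped (-0.36). VEGFA held 46.2, 56.1 and 69.5 CPM in control and 48.2, 58.6 and 64.1 CPM with AII + EGF. VEGFA read 44.3, 51.1, 63.5, 63.8 and 64.3 CPM with AII and 49.4, 55.4, 64.8, 66.5 and 74.3 CPM with EGF. No shift was visible (0.01). ADM held 9.84, 13.2 and 16.1 CPM in control and 8.94, 19.6 and 20.4 CPM with AII + EGF. ADM read 10.9, 12.2, 13.8, 14.9 and 15.4 CPM with AII and 9.74, 12.5, 16.5, 17.4 and 17.6 CPM with EGF. The upper AII + EGF libraries exceeded the controls and replicate 6 fell below them (0.46 ± 0.15, edgeR adjusted p = 0.0282).

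ANKRD37 held 2.69, 3.69 and 4.92 CPM in control (lowest, median and highest) and 3.43, 4.67 and 6.28 CPM with AII + EGF at 24 h. ANKRD37 read 3.02, 3.57, 4.42, 4.44 and 5.26 CPM with AII and 3.58, 3.83, 4.28, 4.65 and 5.07 CPM with EGF. The ranges overlapped (0.34). HIF1A held 65.3, 76.97 and 92.1 CPM in control and 61.4, 69.6 and 71.3 CPM with AII + EGF. HIF1A read 64.96, 71.7, 73.4, 73.99 and 77.6 CPM with AII and 71.6, 72.9, 73.5, 74.7 and 82.5 CPM with EGF. The AII + EGF libraries all stood below the EGF libraries but overlapped with control (-0.19 ± 0.07, edgeR adjusted p = 0.0488). ARNT held 80.4, 101 and 113 CPM in control and 94.3, 115 and 131 CPM with AII + EGF. ARNT read 80.5, 95.1, 101, 104 and 104 CPM with AII and 81.9, 107, 107, 118 and 122 CPM with EGF. The groups overlapped, with AII + EGF reaching highest (0.22 ± 0.09, edgeR adjusted p = 0.0932).

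Between the stimuli at 24 h, AII + EGF against EGF called 0 of the 40 genes (0.0917% of all tested genes), and 0 by DESeq2. The unadjusted edgeR p was under 0.05 for 5 of the 40 and for 2094 of all 19626 tested genes. Without replicate 6 ENO2 (0.72) was called higher and PDK1 (-0.59) lower, and with the stretch of titles as a covariate 1 gene was called higher. Against AII, ENO2 (1.14 ± 0.21, edgeR adjusted p = 3.17e-04) and EPAS1 (0.77 ± 0.14, adjusted p = 2.09e-04) were higher, 2 of 40 against 0.856% of all tested genes. Without replicate 6 the comparison with AII also called SLC2A3 (0.70) and NDRG1 (0.62) as higher and PDK1 (-0.72) and BNIP3 (-0.60) as lower, and with the stretch of titles as a covariate it called 4 genes higher and 1 lower. The interaction called 0 genes at 24 h (0% of all tested genes). Its unadjusted edgeR p was under 0.05 for 0 of the 40 and for 660 of all 19626 tested genes.

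The joint response was tested for a difference between the time points, as the change with AII + EGF against control at 24 h minus that at 6 h. Of the 40 genes 18 passed with a negative difference (6.08% of all tested genes) and 2 with a positive difference (5.5%). The median difference was -0.736 on the log2 scale. SLC2A1 had the most negative difference at -3.14 ± 0.24 (edgeR adjusted p = 4.87e-12), followed by SLC2A3 at -2.23 ± 0.51 (adjusted p = 9.26e-04), HK2 at -2.07 ± 0.26 (adjusted p = 1.11e-07) and PDK1 at -2.01 ± 0.33 (adjusted p = 1.22e-05). The difference of ENO2 was -0.45 ± 0.32 (adjusted p = 0.317) and did not pass. PFKM (0.60) and ARNT (0.59) were the genes with a positive difference, and these calls held in 15 and 12 of 20 leave-outs. Both had AII + EGF means below control at 6 h and above control at 24 h. Neither gene was called against control at either time. PGK1 (-0.84) held in 8 of 20, LDHA was lost without control replicate 6 of 6 h and ANKRD37 without AII + EGF replicate 2 of 6 h. Without replicate 6 PKM (-0.69) and P4HA1 (-0.88) passed with a negative difference too, and PGAM1 (-0.65) did not. Of the 20 calls 10 held in all 15 alternatives and all 20 leave-outs. The time points carry separate stretches of sample titles. Each change is against the control of its own time, so a control that differed with time enters the difference too. For SLC2A3 the control mean was 4.26 CPM at 6 h and 16.9 CPM at 24 h, and the AII + EGF mean 33.5 and 28.5 CPM. For SLC2A1 the means were 61.8 and 79.5 CPM in control and 382 and 55.8 CPM with AII + EGF.

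**Figure D4:**
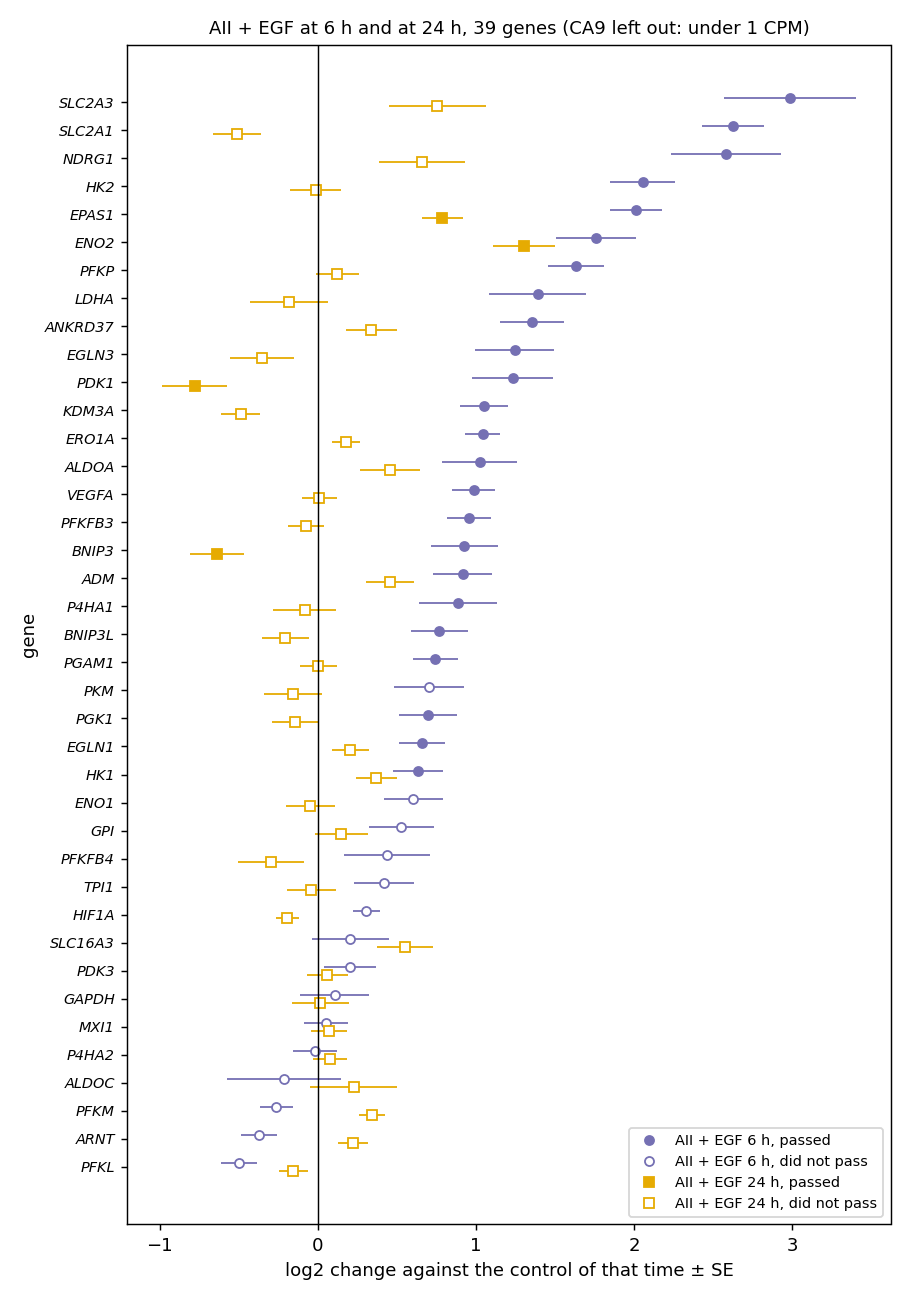
Log2 change with AII + EGF against control at 6 h and 24 h for 39 genes (CA9 left out for its low counts), with error bars of 1 SE. SLC2A1 fell from 2.63 to -0.51 and HK2 from 2.06 to -0.01, whereas ENO2 (1.76 and 1.30) stood above 1 at both times.

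The controls themselves differed with time. Against control at 6 h, 13 of the 40 genes were higher in control at 24 h and 0 lower, where 4.77% of all tested genes were called higher. The largest differences were those of SLC2A3 (log2 1.99), ENO2 (1.46), NDRG1 (1.45), PFKFB4 (1.32), PDK1 (1.12) and ALDOC (1.09). P4HA1 (1.03), BNIP3 (0.98), EPAS1 (0.89), BNIP3L (0.78), PFKP (0.78), P4HA2 (0.65) and VEGFA (0.60) completed the list. ALDOC was called in 2 of 10 leave-outs, those without control replicate 3 of 6 h or replicate 6 of 24 h, and VEGFA in 5 of 10, those without control replicate 5 or 6 of 6 h or replicate 3, 4 or 6 of 24 h. Without replicate 6 HK2 (0.65), ALDOA (0.90) and LDHA (0.74) were called higher as well. None of the 13 calls held in all 15 alternatives and all 10 leave-outs. HIF1A was lower in every control of 24 h (65.3 to 92.1 CPM) than in every control of 6 h (93.3 to 106 CPM), with a log2 difference of -0.37 ± 0.08 (edgeR adjusted p = 3.80e-04) under the fold minimum. Time in culture and the stretch of sample titles cannot be told apart here. Among the markers of other cell types COL1A1 was the 1 of 4 fibroblast genes above 1 CPM in the median library, COL1A2, DCN and LUM staying under it, and the summed fibroblast level was 12.6 to 14.9 CPM in control at 6 h and 14.3 to 40.7 CPM at 24 h. Its part in the difference was not tested.

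Other genes of the same pathways were looked at as lists. Of 34 tested further HIF targets outside the 40, 15 were higher with AII + EGF at 6 h and 0 lower, with a median log2 change of 0.634, where 6.45% of all tested genes were higher and 5.53% lower. The largest were RAB20 (2.50), a small GTPase, the transferrin receptor TFRC (2.08) and the circadian repressors BHLHE40 (2.00) and BHLHE41 (1.74). EGF alone raised 7 of the 34 (1.62% of all tested genes), AII alone 0 (0.459%), and AII + EGF at 24 h 2 (1.7%), SPAG4 and QSOX1, which were named after their values were seen. Of 26 tested further genes of glycolysis and pyruvate metabolism, 4 were higher and 1 lower with AII + EGF at 6 h, against the same 6.45% and 5.53%, with a median of 0.168. The lower one was PDK2 (-1.46), a pyruvate dehydrogenase kinase that moved against PDK1, and the higher ones included the opposing phosphatases PDP1 (1.19) and PDP2 (0.89) and the glycerol phosphate dehydrogenase GPD2 (0.75). EGF and AII called 0 of these 26 at 6 h.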

How the data were processed

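Raw read counts per gene were deposited by the authors as 1 table for all samples. Per the study's methods and processing notes, poly(A) RNA was sequenced in paired reads, aligned to hg38 with HISAT2 2.1.0 and counted with featureCounts against Ensembl genes, and strand settings are not given in the sources used here. Groups came from the source names in the labels, and replicates were numbered in accession order. From the counts, CPM values were computed here with TMM factors, and groups were compared with edgeR 4.0.16 (quasi-likelihood fit, filterByExpr by group, R 4.3.3) in 1 fit of 38 libraries and 8 groups, with Benjamini-Hochberg adjustment over 19626 genes. Called genes had an adjusted p under 0.01, a fold of 1.5 or more and over 5 CPM on average in the higher group, the limits of the study. DESeq2 1.42.0 served as an alternative, and the fit was tested on simulated data. Values per library were given for the 2 most changed genes of each role list plus HIF1A, EPAS1 and ARNT, and other called genes by their log2 change. The 40 genes, the further lists and the tests were chosen with earlier results of these data known. Left out were 8 libraries of near-identical pairs and 2 with doubtful labels. Total counts of 17783804 to 29956472 per library limit the precision of genes with few reads, and the table holds no gene lengths, so levels were not compared between genes.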

Additional observations from a re-analysis of the deposited data

Results flagged for a closer look

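Within groups of 4 to 6 libraries 22 values stood far from the rest of their group among 119 sets of gene and group tested. Chance gives about 1 in 20 for independent sets, but these sets share the same libraries and are not independent. Most of the 22 values belonged to replicate 6. SLC2A3 was lowest in replicate 6 of control at 6 h (1.80 CPM) and of control (4.11), AII (4.99), EGF (8.92) and AII + EGF (10.7) at 24 h. For PDK1 this held in control (19.97), AII (22.4) and EGF (29.4) at 24 h, and for KDM3A in control at 6 h (60.1) and in control (61.1), AII (53.3) and EGF (64.7) at 24 h. NDRG1 was lowest in replicate 6 of AII (104.6 CPM) and EGF (151.5 CPM) at 24 h, HK2 (55.0 CPM) and ADM (8.94 CPM) in that of AII + EGF, PFKP (98.8 CPM) in that of AII, EGLN3 (8.46 CPM) in that of control and EPAS1 (14.02 CPM) in that of EGF. In other libraries ALDOA was low in AII replicate 4 at 6 h (4.09 CPM), LDHA high in AII + EGF replicate 5 at 6 h (2144 CPM) and HIF1A high in EGF replicate 3 at 24 h (82.5 CPM).

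The response to AII + EGF differed between 6 h and 24 h by the test of the difference itself (edgeR, joint change at 24 h minus that at 6 h, log2) for 13 of the genes named in full. The differences were -3.14 for SLC2A1, -2.23 for SLC2A3, -2.07 for HK2, -2.01 for PDK1, -1.92 for NDRG1, -1.60 for EGLN3, -1.57 for LDHA, -1.54 for KDM3A, -1.51 for PFKP, -1.22 for EPAS1, -1.02 for ANKRD37, -0.98 for VEGFA and 0.59 for ARNT.

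Both libraries with labels in doubt were looked at separately, scaled with all 48 libraries. In the library labelled AII replicate 6 at 6 h, 15 of the 24 genes called with AII + EGF at 6 h lay above all 4 controls used, and 8 lay above all AII libraries used. In the library labelled AII + EGF replicate 6 at 6 h, 24 of the 24 genes lay below all AII + EGF libraries used, and 3 lay above all controls. The 24 genes were chosen for being higher in those same AII + EGF libraries than in those same controls. The counts were not made over all tested genes, so they cannot decide whether the labels are right. The check genes EGR1, DUSP6, ETV5 and ARC read 40.1, 1.27, 49.7 and 88.6 CPM in the library labelled AII. In that labelled AII + EGF they read 4.66, 0.676, 7.51 and 7.51 CPM. The highest AII libraries used read 8.63, 0.899, 9.49 and 9.52 CPM, scaled with the 38 libraries. The lowest AII + EGF libraries used read 189, 1.87, 78.2 and 223 CPM. Whether the labels are right was not tested.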

How the results depend on the processing

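The labels give no replicate numbers and those used here follow accession order, so they pair no samples and no block on them was fitted, and the stretch of consecutive sample titles served as a covariate. Counts of called genes among the 40 were recomputed under up to 16 alternatives, of which leaving out the last stretches of titles (all replicate 6 libraries) was added after seeing the data. None of the 63 called log2 changes of the named genes changed sign under these alternatives, and 180 of 216 counts stayed within 1.5 times. Changes that were not called could turn, as those of GAPDH (-0.01) and MXI1 (-0.03) with AII + EGF at 6 h did without replicate 6. With all 48 libraries AII 6 h called 0, AII + EGF 24 h 2, AII + EGF against EGF 6 h 0, against AII 6 h 5 and against AII 24 h 1, the difference between times 12 and control 24 h against 6 h 1. With 40 libraries (doubtful labels kept) AII 6 h called 1, EGF 6 h 3, AII + EGF 24 h 2, against EGF 6 h 0, against AII 6 h 4 and the difference between times 12. With 46 libraries (pairs kept) AII 6 h called 1 and control 24 h against 6 h 2. With the title stretch as a covariate AII 6 h called 7, EGF 6 h 13, EGF 24 h 2, AII + EGF against EGF 5 at 6 h and 1 at 24 h, against AII 24 h 5 and the interaction at 6 h 1. Within the 2 title stretches complete at 6 h AII called 0, EGF 4, AII + EGF against EGF 1, against AII 5 and the difference between times 13. Without replicate 6 AII 6 h called 6, EGF 24 h 2, AII + EGF against EGF 5 at 6 h and 2 at 24 h, against AII 24 h 6 and the interaction at 6 h 1. Only the compared groups in the fit gave 2 for AII + EGF 24 h and 5 against EGF 6 h, as did no fold minimum (5) for the latter. For AII + EGF at 6 h the count was 16 to 26. Leaving out 1 library gave 2 to 3 for AII 6 h, 4 to 8 for EGF 6 h (4 without EGF replicate 5 or control replicate 6), 21 to 26 for AII + EGF 6 h, 0 to 1 for EGF 24 h (1 without EGF replicate 6), 2 to 5 for AII + EGF 24 h (2 without control replicate 1, 2, 4 or 5 or AII + EGF replicate 3, 4 or 5), 1 to 2 against EGF 6 h, 10 to 12 against AII 6 h, 2 to 4 against AII 24 h (4 without AII replicate 6), 17 to 21 for the difference between times and 11 to 17 for control. Library totals without factors moved the median of all genes to -0.113 with EGF and -0.136 with AII + EGF at 6 h, where 6 and 24 of the 40 were called, 1 of the latter lower. The causes were not tested. Genes with few reads, CA9 above all, are limited by depth.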

Other observations

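Genes of pathways that branch from glycolysis were counted at 6 h in the same way. Of 7 tested genes of the pentose phosphate pathway, 0 were higher and 1 lower with AII + EGF, the lactonase PGLS with a log2 change of -0.99 (list median -0.0899 against -0.0319 over all tested genes). By unadjusted edgeR p under 0.05 there were 5 of the 7, beside 8143 of all 19626 tested genes with AII + EGF at 6 h. Of 13 genes of the tricarboxylic acid cycle, 0 were higher and 1 lower, the isocitrate dehydrogenase subunit IDH3G (-0.77, list median 0.0515), where 6.45% of all tested genes were higher and 5.53% lower. By unadjusted p under 0.05 there were 4 of the 13, beside the same 8143 of 19626 tested genes. AII and EGF alone called 0 in both lists at 6 h, and AII + EGF called 0 in both at 24 h.

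Among 11 genes that control HIF or glucose uptake, ARNT2, a gene related to ARNT, was higher with EGF (0.91) and with AII + EGF (1.51) at 6 h. TXNIP, which limits glucose uptake, was lower with AII + EGF at 6 h (-1.39) and higher at 24 h (0.89). With AII alone 0 of the 11 were called at 6 h. In control at 24 h against control at 6 h, 14 of the 34 further HIF targets were higher and 0 lower, with a list median of 0.605, where 4.77% of all tested genes were higher and their median was 0.0325.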
